A study of Homo sapiens with 18 samples.

Results

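The keratin genes described here are 10 named simple and squamous epithelial keratins: KRT7, KRT8, KRT10, KRT13, KRT17, KRT18, KRT19, KRT20, KRT23 and KRT80. They were found by their symbol in the row names, and all 10 were present among the 60683 gene rows of each of the 2 count tables. Another 45 keratin genes in the same tables served as the rest of the family. Poly(A) RNA was sequenced from HCT-116 cells, an established human colorectal carcinoma line, in 18 libraries that formed 6 groups of 3. In the first table ACTB-mut and ACTB-WT are Actin KO cells labelled as over-expressing mutant actin (H73A, per the series design) or wild-type actin, and Actin KO is the same background stably carrying an empty construct. All 3 groups of that table therefore carry the actin knockout. In the second table SETD3 KO2 and SETD3 KO1 are knockouts of SETD3, the enzyme that methylates the actin histidine altered in H73A, and SETD3 CT is their control. Whether the libraries of a group came from separate cultures, and whether a line is a single clone, was not stated, so every p-value reflects differences among these libraries alone, which may be technical. The cell line label of SETD3 KO2 replicate 3 read HCT-117, and it was kept in its group.

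Keratins are the intermediate filament proteins of epithelial cells. A filament is built from pairs of a type I and a type II keratin, and the partners stabilise each other as proteins. Simple epithelia such as the intestinal lining use KRT8 (type II) with KRT18, KRT19 and KRT20 (type I), whereas stratified epithelia use other pairs and switch on KRT17 (type I) in stress and wound repair. The type I genes lie together on chromosome 17 and the type II genes on chromosome 12, where KRT18 is the exception, a type I gene next to KRT8.

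Total counts ranged from 3389586 to 11652967 a library. Levels are given in CPM, which relates each count to 1000000 counts of its library after TMM scaling, a normalisation that evens out library composition. ACTB itself stood at 32.0 to 47.1 CPM in ACTB-mut, 23.2 to 31.0 CPM in ACTB-WT and 14.9 to 24.9 CPM in Actin KO, so ACTB RNA stayed low in all 3 groups and the add-backs are named by their labels. SETD3 RNA was 15.6 to 27.7 CPM in SETD3 KO2, 6.34 to 17.1 CPM in SETD3 KO1 and 14.0 to 36.0 CPM in SETD3 CT, overlapping ranges that do not check those labels. All 7 epithelial markers (EPCAM, CDH1, CLDN4, CLDN7, ESRP1, ELF3 and ST14) had counts in every group, summing to 961 to 1511 CPM over the 18 libraries. Their levels were uneven: EPCAM ran from 169 to 843 CPM, ESRP1 from 2.44 to 31.3 CPM and CDH1 from 0.637 to 10.7 CPM. The 8 fibroblast markers summed to 2.54 to 10.1 CPM in ACTB-mut (3 with counts), 0.597 to 12.6 CPM in ACTB-WT (2 with counts) and 1.71 to 4.30 CPM in Actin KO (2 with counts), and to 3.72 to 15.3 CPM in SETD3 KO2 (3 with counts), 1.06 to 2.66 CPM in SETD3 KO1 (2 with counts) and 2.15 to 10.7 CPM in SETD3 CT (2 with counts). COL1A1 and THY1 had counts in every group, and DCN, LUM, COL3A1 and FAP were at 0 in all 6. Of the 6 basal keratinocyte markers TP63, the defining transcription factor, was at 0 in every library, and the sums of this list stand beside the results below.

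Keratin genes resemble one another, and the sequences bear on how well KRT17 can be counted. KRT17 lies on the minus strand at chr17:41619441-41624842 (GRCh38). The longest run that its coding sequence shared with KRT16, its neighbour in the cluster, was 61 bases, and the stretch is shown with 15 bases on either side because it encodes the conserved end of the keratin rod, where type I keratins are most alike. In KRT17 it spans coding bases 1094 to 1184. The sequences are from GENCODE release 29 transcripts, 5′ to 3′, and capitals mark bases that differ from KRT17.
KRT17: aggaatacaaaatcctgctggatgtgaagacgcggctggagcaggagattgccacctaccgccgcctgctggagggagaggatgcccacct
KRT16: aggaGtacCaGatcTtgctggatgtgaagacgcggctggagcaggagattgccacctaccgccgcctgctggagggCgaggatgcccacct
KRT14: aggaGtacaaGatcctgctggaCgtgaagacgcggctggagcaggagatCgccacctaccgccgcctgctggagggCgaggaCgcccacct
Over these 91 bases KRT16 differed from KRT17 at 5 positions and KRT14 at 6. Over the whole KRT17 transcript, 1.62% of the 50-base windows were found unaltered in another keratin gene and 14.6% in a KRT17 pseudogene, which left 84.0% found in no other keratin row. The 8 KRT17 pseudogene rows had 0 counts in all libraries. For KRT13 at chr17:41500981-41505705 (minus strand), 99.0% of the windows were found in no other keratin row, and KRT15 shared the remainder. KRT10, KRT20 and KRT23 shared no window.

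The counting of KRT8 and KRT18 is less certain. For KRT8 67.4% of the windows, and for KRT18 68.2%, were found in no other keratin row, and pseudogenes held the rest. RSEM assigned few reads to those pseudogenes: 24.3 to 90.3 counts a library over 67 KRT18 pseudogenes, at most 0.249% of the KRT18 count, and at most 17 counts over 51 KRT8 pseudogenes. In GENCODE 29 the KRT8 gene (chr12:52897187-52949954, minus strand) overlaps KRT18 (chr12:52948871-52952901, plus strand) by 1084 bases. The strand setting of the counting was not given in the sources used here, so reads from that overlap cannot be assigned to either gene with certainty.

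Simple epithelial keratins made up nearly all keratin RNA in every group. KRT8, KRT18 and KRT19 together held 97.3% to 98.7% of the counts of the 10 genes across the 18 libraries, and the 10 genes held 0.756% to 1.27% of all counts. Compared per length, as CPM per kb of the principal GENCODE transcript, KRT18 was first in every group at a mean of 2937 in ACTB-mut, 3889 in ACTB-WT and 2912 in Actin KO, and at 2929 in SETD3 KO2, 3168 in SETD3 KO1 and 3012 in SETD3 CT. Its lowest library lay above the highest library of the next gene in all 6 groups. KRT19 and KRT8 came next, and their library ranges overlapped in 5 of 6 groups: in ACTB-mut alone KRT19 (1392 to 1679 CPM per kb) lay wholly above KRT8 (899 to 1385 CPM per kb). KRT10, a keratin best known from the upper layers of skin, came after them in every group at 55.3 to 76.4 CPM per kb. KRT7, a type II keratin of ducts, stayed between 7.81 and 12.1 CPM per kb in the group means.

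The lower ranks changed places between groups. In ACTB-WT KRT13 and KRT17 stood at 27.1 and 15.9 CPM per kb, next after KRT10 and above KRT7 at 12.1, although the library ranges of these neighbours overlapped. In ACTB-mut KRT17 was last of the 10 at 0.0580 CPM per kb, and in Actin KO it was at 1.32 CPM per kb. KRT13 stood at 0.826 CPM per kb in ACTB-mut and 0.286 CPM per kb in Actin KO, where its library range overlapped that of KRT20 in both groups. Type II keratins summed to 0.270 ± 0.0695 of the type I sum per kb in ACTB-mut, 0.243 ± 0.0363 in ACTB-WT and 0.275 ± 0.0524 in Actin KO (SD, n = 3 each), differences smaller than the spread between libraries. The ratio was 0.351 ± 0.0897 in SETD3 KO2, 0.317 ± 0.0390 in SETD3 KO1 and 0.260 ± 0.0701 in SETD3 CT (SD, n = 3 each), with a range over single libraries of 0.180 to 0.454.

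**Figure D1:**
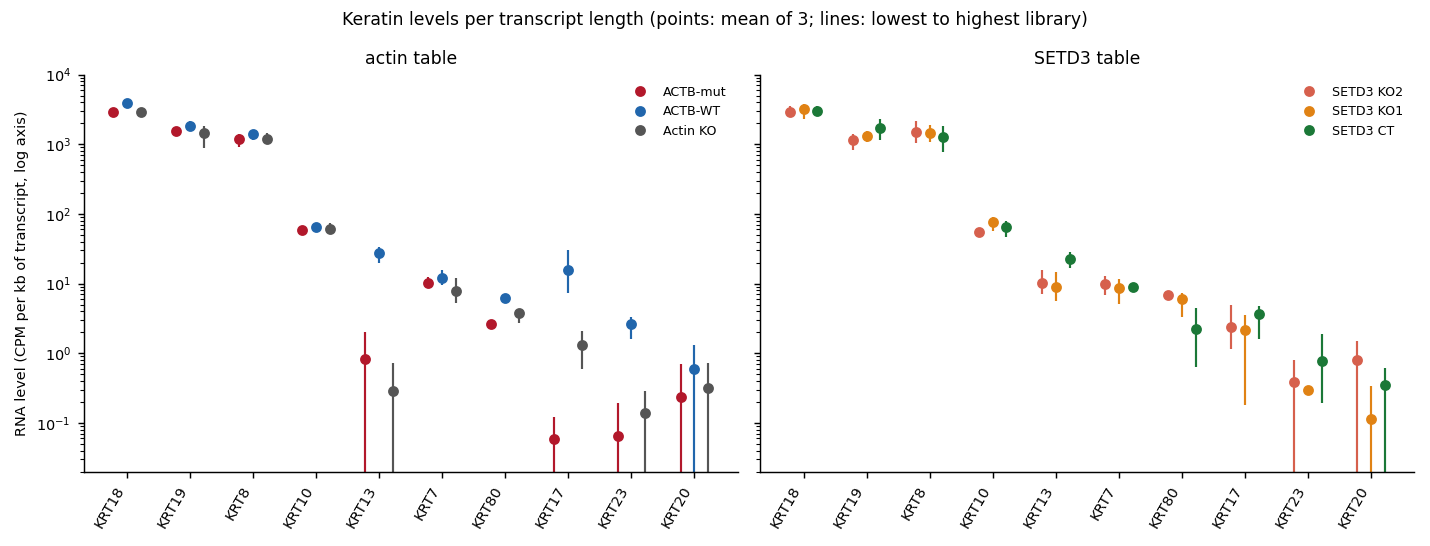
Keratin RNA in CPM per kb of transcript on a log axis, for the 3 groups of the actin table (left) and of the SETD3 table (right); points are means of 3 libraries and lines run from the lowest to the highest library, cut at the foot of the axis where a library is at 0. KRT18, KRT19 and KRT8 lie above the other 7 genes in every library, and KRT13, KRT17 and KRT23 have higher means in ACTB-WT than in both other groups of the actin table.

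Wild-type actin add-back cells had far more KRT13 and KRT17 RNA than both other groups of their table. KRT13 is a type I keratin of the wet stratified epithelia of mouth and oesophagus. It was at 3.41, 0.80 and 0 CPM in the ACTB-mut libraries, at 56.9, 47.3 and 33.8 CPM in the ACTB-WT libraries, and at 0, 1.23 and 0.23 CPM in the Actin KO libraries. All ACTB-WT libraries lay above all others, and ACTB-mut overlapped Actin KO. The log2 fold change of ACTB-mut over ACTB-WT was -4.95 (SE 0.88, edgeR quasi-likelihood test, adjusted p = 0.0131). That call was lost without ACTB-WT replicate 2 or without ACTB-mut replicate 2, with an edgeR adjusted p of up to 0.0661. Over the 6 fits that left out a library the log2 fold change ran from -6.69, without ACTB-mut replicate 1, to -4.43. Between ACTB-mut and Actin KO the log2 fold change was 1.56 (SE 1.01, edgeR adjusted p = 0.635), and it was -0.18 without ACTB-mut replicate 1, the library with most of the group's counts. In bulk RNA fewer cells with a transcript and less of it per cell cannot be told apart, here and in all results that follow.

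KRT17 parted the groups further. It had 0.09, 0.20 and 0 CPM in the ACTB-mut libraries, which together held 3 counts, against 11.9, 16.4 and 50.4 CPM in the ACTB-WT libraries. The Actin KO libraries held 2.12, 0.98 and 3.42 CPM, 54 counts in all. The 3 groups did not overlap: ACTB-WT was highest, Actin KO intermediate and ACTB-mut lowest, and ACTB-WT replicate 3 was over 3 times its fellow libraries. Set against ACTB-WT, KRT17 in ACTB-mut was lower by 7.81 on the log2 scale (log2 fold change -7.81, SE 0.91, edgeR adjusted p = 4.30e-04). As a ratio of scaled counts, ACTB-WT held 253 times as much as ACTB-mut, with an exact 95% counting interval of 86.0 to 1231. Leaving out any 1 library of either group kept that call, with an adjusted p of at most 0.0071, whereas limma-voom gave 0.072.

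Both add-back groups were also set against the knockout that carries the empty construct. KRT17 fell in ACTB-mut relative to Actin KO (log2 fold change -4.23, SE 0.90, edgeR adjusted p = 0.0344), and the ratio of scaled counts of 0.0463 had a 95% counting interval of 0.00926 to 0.143. The call held in 1 of 6 fits that left out a library, the fit without Actin KO replicate 2, and the adjusted p reached 0.157 in the other such fits and 0.401 in limma-voom. KRT17 rose in ACTB-WT (3.58, SE 0.68, edgeR adjusted p = 0.0149), a call that 3 of 6 such fits did not keep, those leaving out ACTB-WT replicate 3, Actin KO replicate 1 or Actin KO replicate 2 (adjusted p as high as 0.232), with a log2 fold change of 2.69 to 4.06 over the 6 fits. In limma-voom this rise was not called either (adjusted p = 0.0807). KRT13 rose in ACTB-WT (6.51, SE 1.00, edgeR adjusted p = 0.00391) and kept that call in all 15 alternative fits. Its log2 fold change ran from 5.97 to 8.38 over the fits that left out a library, and the highest was that without Actin KO replicate 2, the library with most of the group's counts. The 2 add-back comparisons share the Actin KO libraries, so they are not independent of each other.

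KRT23, a type I keratin expressed in many colorectal tumours, had values of the same kind at a lower level. It had 0, 0 and 0.38 CPM in ACTB-mut, 6.56, 3.22 and 6.10 CPM in ACTB-WT, and 0, 0.25 and 0.57 CPM in Actin KO. Every ACTB-WT library was above every other library, but the log2 fold changes missed the threshold: -5.34 (SE 1.67, edgeR adjusted p = 0.166) for ACTB-mut over ACTB-WT and 4.18 (SE 1.55, edgeR adjusted p = 0.281) for ACTB-WT over Actin KO. DESeq2 called the first of these (adjusted p = 0.00845). The 3 counts of ACTB-mut against 92 in ACTB-WT corresponded to 49.4 times as much in ACTB-WT, with a 95% counting interval of 16.4 to 244. Its variation between replicates, as edgeR's coefficient of biological variation, was 98.9%, against 14.2% for KRT18 in the same table.

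KRT80, a type II keratin associated with desmosomes in many epithelia, was at 8.83, 10.7 and 10.7 CPM in ACTB-mut, 21.1, 25.9 and 24.6 CPM in ACTB-WT, and 10.5, 16.3 and 16.2 CPM in Actin KO. The ACTB-WT libraries lay above both other groups. The log2 fold change was -1.25 for ACTB-mut over ACTB-WT (SE 0.33, edgeR adjusted p = 0.0958, DESeq2 adjusted p = 0.0222) and 0.73 for ACTB-WT over Actin KO (SE 0.33, edgeR adjusted p = 0.42).

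Among the abundant keratins KRT18 alone separated the groups. KRT18, the type I partner of KRT8, was at 4105, 5068 and 4587 CPM in ACTB-mut, 6683, 5666 and 5875 CPM in ACTB-WT, and 3852, 4600 and 5195 CPM in Actin KO. Every ACTB-WT library exceeded all libraries of the other groups. The difference was small beside that of KRT13: the log2 fold change was -0.41 for ACTB-mut over ACTB-WT (SE 0.11, edgeR adjusted p = 0.103) and 0.42 for ACTB-WT over Actin KO (SE 0.11, edgeR adjusted p = 0.108). DESeq2, and edgeR without the filter on low counts, called both. KRT8, its type II partner, averaged 2549 ± 557 CPM in ACTB-mut, 2967 ± 438 CPM in ACTB-WT and 2517 ± 469 CPM in Actin KO (SD, n = 3 each), with overlapping groups. KRT19, which has almost no tail domain, averaged 2134 ± 199 CPM, 2541 ± 395 CPM and 2022 ± 712 CPM in the same order of groups and overlapped as well. KRT10 ranged from 112 to 157 CPM and KRT7 from 9.33 to 27.4 CPM over the 9 libraries, and neither passed the test in any of the 3 comparisons. KRT20, a marker of differentiated intestinal epithelium, was too low to be tested: it had counts in 1 of 3 ACTB-mut libraries, 2 of 3 ACTB-WT libraries and 2 of 3 Actin KO libraries, and no library of the table exceeded 2.27 CPM.

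**Figure D2:**
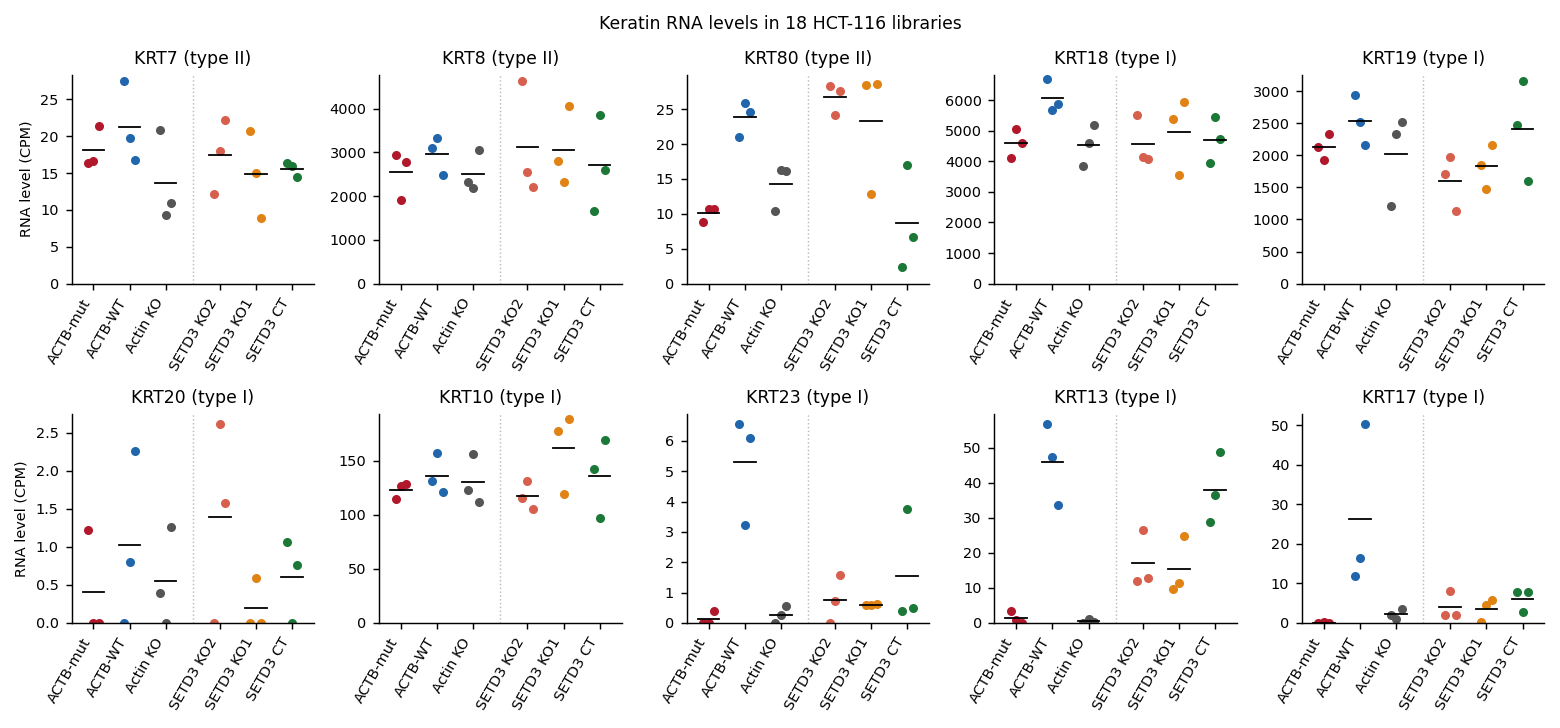
RNA level in CPM (linear axes from 0, a different scale in each panel) of the 10 keratin genes in every library; points are libraries, short bars are means of 3, and the dotted line parts the actin table (left) from the SETD3 table (right). The ACTB-WT points stand above both neighbouring groups for KRT13, KRT17, KRT23, KRT80 and KRT18, and KRT80 in SETD3 KO2 stands above SETD3 CT.

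Counted over the family, the 9 keratins that passed the filter on low counts were split as follows, and KRT20 did not pass. The 10 keratins were chosen with earlier results of these data known. The shares of all genes beside them are therefore given for scale and do not test the family. For ACTB-mut against Actin KO, 0 rose and 1 fell, beside a background of 0.324% of all 13882 tested genes called higher and 0.598% called lower. For ACTB-WT against Actin KO, 2 rose and 0 fell, beside 0.439% of all genes called higher and 0.677% called lower. For ACTB-mut against ACTB-WT, 0 rose and 2 fell, beside 0.634% called higher and 0.605% called lower. Shares of genes whose libraries do not overlap are, here and below, shares of the tested genes, while the 10 keratins include untested ones. The libraries did not overlap, with ACTB-mut lower than Actin KO, for 1 of 10 keratins and 9.16% of all genes. They did not overlap, with ACTB-WT higher than Actin KO, for 5 of 10 keratins and 7.64% of all genes. They did not overlap, with ACTB-mut lower than ACTB-WT, for 5 of 10 keratins and 8.14% of all genes. All 9 log2 fold changes of ACTB-WT over Actin KO were above 0, with a median of 0.64 beside -0.01 for all tested genes. All 9 of ACTB-mut over ACTB-WT were below 0, with a median of -0.41 beside 0.02. Of those of ACTB-mut over Actin KO, 5 were above 0 and 4 below, with a median of 0.01 beside 0.03. The counts for ACTB-WT over Actin KO and for ACTB-mut over ACTB-WT share the ACTB-WT libraries, so they are not independent of each other. Without ACTB-WT, KRT13, KRT17 and KRT23 did not pass the filter, so they were among the 9 only through that group. The filter thus favoured their direction in the 2 comparisons with ACTB-WT, and these counts, signs and medians are descriptions only.

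**Figure D3:**
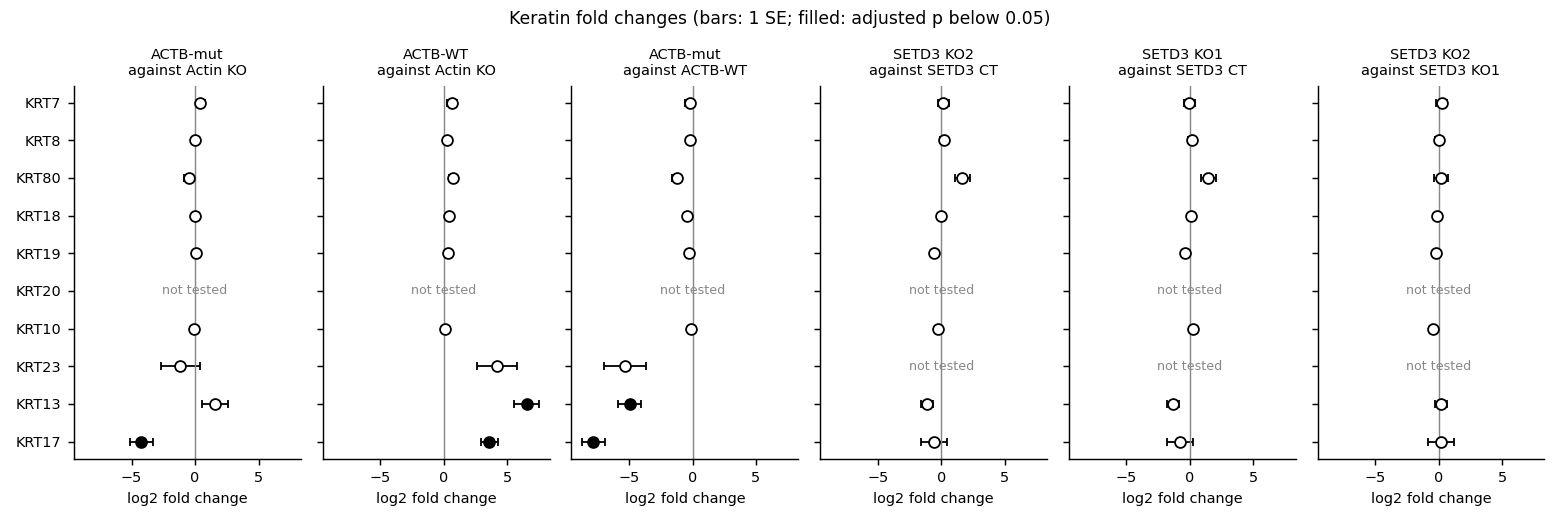
Log2 fold change of each keratin gene in the 6 comparisons, with bars of 1 SE; filled points have an edgeR adjusted p below 0.05. The 5 filled points are KRT17 and KRT13 in the actin table, and none is filled in the SETD3 table.

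None of the 8 keratins tested among the 10 passed the threshold in the SETD3 lines. Of these keratins, 0 were called by edgeR in SETD3 KO2 against SETD3 CT, 0 in SETD3 KO1 against SETD3 CT and 0 in SETD3 KO2 against SETD3 KO1, and DESeq2 and limma-voom also called 0. At an unadjusted p below 0.05 there were 3, 2 and 0 keratins in the same order of comparisons, beside 4.95%, 5.75% and 4.84% of all tested genes. Few genes of any kind were called there: 0.0578% of 13846 tested genes in SETD3 KO2 against SETD3 CT, 0.0144% in SETD3 KO1 against SETD3 CT and 0.0289% in SETD3 KO2 against SETD3 KO1. The coefficient of biological variation was 83.4% for KRT17 and 21.6% for KRT18 in this table. The 2 knockout comparisons share the SETD3 CT libraries.

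KRT13 was lower in every library of both SETD3 knockout lines than in any SETD3 CT library. It was at 12.1, 26.5 and 12.7 CPM in SETD3 KO2 and at 9.62, 11.5 and 24.9 CPM in SETD3 KO1, against 28.7, 36.6 and 48.7 CPM in SETD3 CT. The nearest libraries, SETD3 KO2 replicate 2 and SETD3 CT replicate 1, lay close together. The log2 fold change was -1.14 in SETD3 KO2 (SE 0.46, edgeR adjusted p = 0.874) and -1.31 in SETD3 KO1 (SE 0.46, edgeR adjusted p = 0.746), so neither passed. KRT13 was the 1 keratin of 10 wholly lower in each comparison, beside 5.28% of all genes in SETD3 KO2 against SETD3 CT and 6.73% in SETD3 KO1 against SETD3 CT. The tables were normalised separately, so the 38.0 ± 10.1 CPM of SETD3 CT and the 46.0 ± 11.6 CPM of ACTB-WT (SD, n = 3 each) are given side by side without a test.

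KRT80 leaned the other way. It was at 28.3, 24.1 and 27.6 CPM in SETD3 KO2 and 28.4, 12.8 and 28.7 CPM in SETD3 KO1, against 2.42, 17.1 and 6.69 CPM in SETD3 CT. All SETD3 KO2 libraries were above SETD3 CT, as for 4.97% of all genes, whereas SETD3 KO1 replicate 2 lay below SETD3 CT replicate 2. The log2 fold change was 1.64 in SETD3 KO2 (SE 0.60, edgeR adjusted p = 0.828) and 1.44 in SETD3 KO1 (SE 0.59, edgeR adjusted p = 0.826).

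The other keratins of the SETD3 table overlapped between all groups. KRT19 averaged 1602 ± 427 CPM in SETD3 KO2, 1833 ± 343 CPM in SETD3 KO1 and 2409 ± 783 CPM in SETD3 CT (SD, n = 3 each), and its log2 fold change in SETD3 KO2 was -0.59 (SE 0.26, edgeR adjusted p = 0.956). KRT18 averaged 4574 ± 826 CPM, 4949 ± 1253 CPM and 4705 ± 757 CPM in the same order of groups, and KRT8 3132 ± 1312 CPM, 3062 ± 902 CPM and 2702 ± 1098 CPM. KRT17 had 1.91, 8.04 and 1.90 CPM in SETD3 KO2, 0.30, 4.58 and 5.92 CPM in SETD3 KO1, and 7.86, 2.66 and 7.70 CPM in SETD3 CT. Each group thus held 1 library apart from its fellows, and the SE of the KRT17 log2 fold change was 1.03 in both knockout comparisons. KRT10 ranged from 97.3 to 189 CPM and KRT7 from 8.95 to 22.2 CPM over the 9 libraries. KRT20 and KRT23 did not pass the filter, and no library exceeded 2.62 CPM for KRT20 or 3.77 CPM for KRT23. Between SETD3 KO2 and SETD3 KO1 the groups overlapped for all 10 keratins, beside 11.9% of all tested genes that did not overlap. So few keratins cannot be told apart from that share.

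The keratins called in the actin table did not lie next to each other in the type I cluster. Read along chromosome 17 from low to high coordinates, the tested type I genes of the actin table were KRT10, KRT23, KRT32, KRT13, KRT15, KRT19, KRT16 and KRT17. KRT15, a keratin of basal and stem-like cells of stratified epithelia that lies between KRT13 and KRT19, was at 13.3 to 16.0 CPM in ACTB-WT against 19.3 to 30.1 CPM in Actin KO (log2 fold change -0.74, SE 0.33, edgeR adjusted p = 0.409). KRT32, a hair keratin on the other side of KRT13, was at 1.88 to 1.99 CPM in ACTB-WT against 5.71 to 8.35 CPM in Actin KO (-1.78, SE 0.68, edgeR adjusted p = 0.300). In ACTB-mut they stood at 13.8 to 22.3 CPM for KRT15 (-0.48 against Actin KO, SE 0.32, edgeR adjusted p = 0.661) and 3.32 to 5.33 CPM for KRT32 (-0.70, SE 0.65, adjusted p = 0.787), so both were also below 0 in that comparison, and the KRT32 libraries of Actin KO lay above those of both add-backs. Neither gene passed the threshold. The other tested type I genes were above 0 for ACTB-WT against Actin KO. KRT19 stood at 0.33 (SE 0.22, edgeR adjusted p = 0.659) and KRT16, the neighbour of KRT17, at 1.81 (SE 1.86, adjusted p = 0.823). All 49 KRT16 counts of ACTB-WT came from replicate 3, the library that also held most KRT17 counts of that group. KRT14, not tested in the actin groups, had 0, 25 and 18 counts in the ACTB-WT libraries and 0 in every Actin KO library, so these groups overlapped. In the ACTB-mut libraries it had 0, 9 and 2 counts. KRT15, KRT32, KRT16 and KRT14 were chosen after their values were seen.

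**Figure D4:**
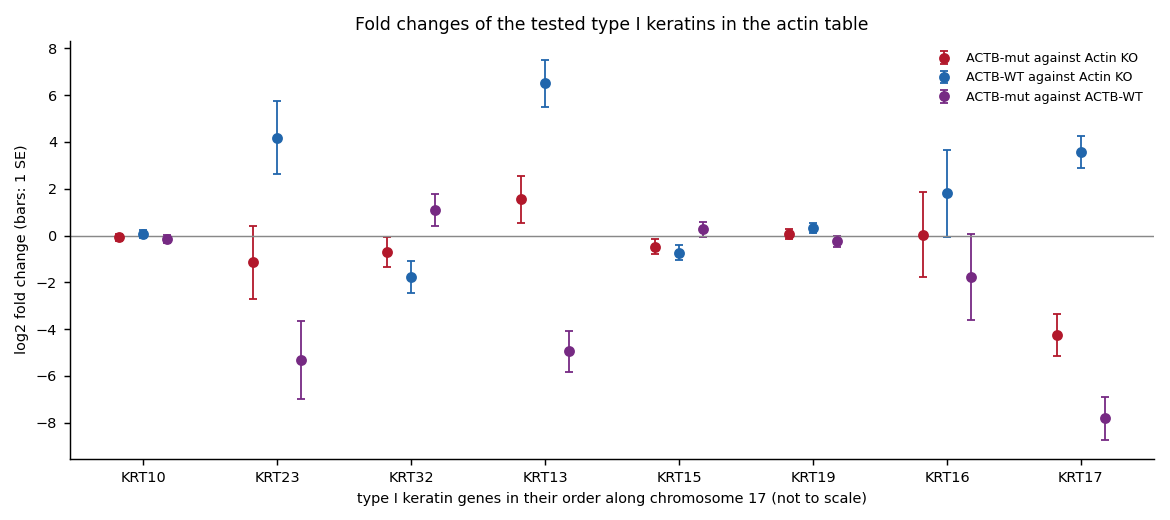
Log2 fold change with bars of 1 SE for the 8 tested type I keratin genes of chromosome 17 in the actin table, placed in gene order and not to scale. For ACTB-WT against Actin KO the called genes are KRT13 at 6.51 and KRT17 at 3.58. In that comparison KRT32 at -1.78 and KRT15 at -0.74, beside KRT13, lie below 0. KRT16 at 1.81, where the ACTB-WT counts all come from replicate 3, and the remaining genes lie above 0.

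Of the 45 other keratin genes, 18 had any count in the actin table and 20 in the SETD3 table, and 6 and 7 passed the filter. None was called in any of the 6 comparisons by edgeR or limma-voom. At an unadjusted p below 0.05 there were 0 in ACTB-mut against Actin KO, 2 in ACTB-WT against Actin KO, 0 in ACTB-mut against ACTB-WT, 1 in SETD3 KO2 against SETD3 CT, 3 in SETD3 KO1 against SETD3 CT and 2 in SETD3 KO2 against SETD3 KO1. In the 3 actin comparisons, in that order, 11.5%, 11.2% and 12% of all tested genes were below that level. For the SETD3 comparisons, in that order, the shares were 4.95%, 5.75% and 4.84%. KRT6A and KRT14 in the SETD3 table are named after their values were seen. KRT6A, a type II partner of KRT17 in stressed epithelium, was at 25.8 to 31.5 CPM in SETD3 KO2 and 20.6 to 28.5 CPM in SETD3 KO1, against 12.0 to 14.5 CPM in SETD3 CT, which did not overlap (1.13, SE 0.33, edgeR adjusted p = 0.590 in SETD3 KO2, and 0.86, SE 0.33, adjusted p = 0.809 in SETD3 KO1). KRT14, the basal type I keratin, had 2.90 to 17.5 CPM in SETD3 KO2, 0 counts in all 3 SETD3 KO1 libraries and 2.04 to 12.9 CPM in SETD3 CT. Against a floor of 3 counts over the SETD3 KO1 group it was at least 66.2-fold higher in SETD3 KO2 and at least 36.3-fold lower in SETD3 KO1 than in SETD3 CT, yet the edgeR adjusted p was 0.223 and 0.281. SETD3 KO2 replicate 2 held 194 of the 239 counts of its group, and without it the first bound was 21.5-fold. Without SETD3 CT replicate 2 the second bound was 22.1-fold. DESeq2 called KRT14 in both (adjusted p = 1.83e-04 and 4.74e-04), and its counting is uncertain where its sequence matches KRT16 and KRT17. The basal keratinocyte markers, which include KRT6A and KRT14, summed to 32.5 to 47.6 CPM in SETD3 KO2 (5 of 6 with counts), 24.0 to 29.6 CPM in SETD3 KO1 (4 of 6) and 20.2 to 33.2 CPM in SETD3 CT (5 of 6), and the part of such cells in the SETD3 keratin values was not tested.

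The genes whose levels were most like those of the called keratins were sought by Pearson correlation of log2 CPM over the 9 actin-table libraries, which share their groups and normalisation; no p is given. For KRT13 they were THBS3 (r = 0.965), DPYSL3 (r = 0.947) and IGFL1 (r = 0.941), and for KRT17 RPL19 (r = 0.968), SAMD1 (r = 0.962) and MALL (r = 0.955). THBS3, a thrombospondin, averaged 0.554 CPM in ACTB-mut, 4.01 CPM in ACTB-WT and 0.161 CPM in Actin KO. MALL, a membrane raft protein, averaged 135 CPM, 218 CPM and 179 CPM in the same order of groups, which is the order of KRT17 over a far narrower range. Between the 2 keratins themselves r was 0.728, and KRT17 was closer to KRT80 (r = 0.903) and KRT23 (r = 0.858).

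Genes of proteins that anchor or modify keratin filaments gave few calls. Of 14 desmosome genes, which fasten keratins at cell contacts, 9 were tested and 0 rose or fell by edgeR in any of the 6 comparisons. At an unadjusted p below 0.05 there were 1 in ACTB-mut against Actin KO, 2 in ACTB-WT against Actin KO, 1 in ACTB-mut against ACTB-WT and 0 in each SETD3 comparison. Of all tested genes, 11.5%, 11.2% and 12% were below that level in those actin comparisons. DESeq2 called 1 in the first of these, 0 in the second and 1 in the third, and limma-voom called 0. Of 13 plakin and hemidesmosome genes, 12 were tested. ITGB4, the integrin beta chain that recruits keratins to hemidesmosomes, fell to 113 ± 19.4 CPM in ACTB-mut against 223 ± 16.5 CPM in Actin KO (SD, n = 3 each; log2 fold change -0.97, SE 0.17, edgeR adjusted p = 0.0121). That call held without Actin KO replicate 2 or ACTB-mut replicate 3 and was lost in the other 4 fits that left out a library (adjusted p up to 0.0679). DESeq2 also called ITGB4 lower in ACTB-WT than in Actin KO (log2 fold change -0.62, DESeq2 adjusted p = 0.0355), where edgeR did not. ITGA6, its partner chain, was at 6.45 ± 3.67 CPM in ACTB-mut, 0 counts in all ACTB-WT libraries and 6.24 ± 6.13 CPM in Actin KO (SD, n = 3 each). It was at least 37.2-fold lower in ACTB-WT than in Actin KO (edgeR adjusted p = 0.0231), and it was at least 36.4-fold higher in ACTB-mut than in ACTB-WT (adjusted p = 0.0219). Without Actin KO replicate 2, which held 105 of the 150 counts of its group, the first bound was 16.8-fold, and without ACTB-mut replicate 3 the second was 26.6-fold. Its first call held only without Actin KO replicate 3 and its second only without ACTB-mut replicate 1 or 2 (adjusted p up to 0.0938 and 0.0842 otherwise). DESeq2 called 2 genes of the list in each comparison of the actin table. In limma-voom ITGB4 was called in ACTB-mut against Actin KO, but neither ITGA6 call was made. No gene of this list was called in the SETD3 table by edgeR, DESeq2 or limma-voom, and at an unadjusted p below 0.05 there were 2, 2 and 0 in SETD3 KO2 against SETD3 CT, SETD3 KO1 against SETD3 CT and SETD3 KO2 against SETD3 KO1. Of all tested genes, 4.95%, 5.75% and 4.84% were below that level, in the same order.

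Of 14 keratin-binding or keratin-modifying genes, 13 were tested in the actin table. FAM83H, which binds keratins and recruits casein kinase 1, fell to 159 ± 9.40 CPM in ACTB-mut against 257 ± 17.6 CPM in ACTB-WT (SD, n = 3 each; -0.69, SE 0.12, edgeR adjusted p = 0.00995) and against 256 ± 4.72 CPM in Actin KO (-0.68, SE 0.12, adjusted p = 0.0119). The first call was lost without ACTB-WT replicate 2 or ACTB-mut replicate 1 (adjusted p up to 0.0603), and the second without Actin KO replicate 3 or ACTB-mut replicate 1 (up to 0.0676). HSPB1, a small heat shock protein that associates with keratin filaments, rose to 2686 ± 40.2 CPM in ACTB-mut against 1993 ± 144 CPM in Actin KO (0.43, SE 0.08, edgeR adjusted p = 0.0203), a call that none of the 6 fits leaving out a library kept (adjusted p up to 0.119) but DESeq2 and limma-voom made too. Of 15 other intermediate filament genes, 9 were tested in the actin table and VIM alone was called by edgeR. VIM, the mesenchymal filament protein vimentin, was at 7.35, 1.80 and 10.3 CPM in ACTB-mut, at 0 in all ACTB-WT libraries, and at 6.63, 3.07 and 7.53 CPM in Actin KO. The direction is opposite to that of KRT13: VIM was at least 37.8-fold higher in ACTB-mut than in ACTB-WT (edgeR adjusted p = 0.0122) and at least 35.0-fold lower in ACTB-WT than in Actin KO (adjusted p = 0.0118). The first call was lost without ACTB-WT replicate 2 (adjusted p = 0.0525), and limma-voom made neither. In the SETD3 table edgeR and limma-voom called 0 of the 14 keratin-binding or keratin-modifying genes and 0 of the 8 other filament genes tested there, and DESeq2 called 1 of the first list, in SETD3 KO2 against SETD3 KO1, and 0 of the second. At an unadjusted p below 0.05 there were 0, 1 and 1 of the first list and 1, 1 and 0 of the second in SETD3 KO2 against SETD3 CT, SETD3 KO1 against SETD3 CT and SETD3 KO2 against SETD3 KO1. Of all tested genes, 4.95%, 5.75% and 4.84% were below that level, in the same order.

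Genes of squamous epithelium were called in both directions. Of 34 genes of squamous epithelium and the cornified envelope, 11 were tested, with a median log2 fold change of -0.33 in ACTB-mut against Actin KO, -0.29 in ACTB-WT against Actin KO and -0.03 in ACTB-mut against ACTB-WT. The called genes numbered 1 higher and 1 lower, 2 higher and 1 lower, and 1 higher and 1 lower in those comparisons. Of all tested genes, 0.324%, 0.439% and 0.634% were called higher and 0.598%, 0.677% and 0.605% lower, in the same order. This list was chosen with earlier results of these data known. LY6D, a surface protein of keratinocytes, had the same order of groups as KRT17: 0.856 ± 0.309 CPM in ACTB-mut, 172 ± 17.4 CPM in ACTB-WT and 3.21 ± 0.313 CPM in Actin KO (SD, n = 3 each). It fell in ACTB-mut against Actin KO (log2 fold change -1.85, SE 0.30, edgeR adjusted p = 0.00773). LY6D also rose in SETD3 KO2, at 105 ± 38.0 CPM against 9.65 ± 4.52 CPM in SETD3 CT (3.43, SE 0.45, edgeR adjusted p = 0.0125), a line in which KRT13 and KRT17 were not called. SETD3 KO1 showed no such rise, at 6.30 ± 2.54 CPM, and SETD3 KO2 was called higher than SETD3 KO1 (4.05, SE 0.47, edgeR adjusted p = 0.00374). The call against SETD3 CT was lost without SETD3 CT replicate 2 or 3 or SETD3 KO2 replicate 2 or 3 (adjusted p up to 0.159). That against SETD3 KO1 was lost without SETD3 KO1 replicate 1 or 3 (up to 0.0585). The LY6D calls in the actin table held in every such fit, but limma-voom did not make that of ACTB-mut against Actin KO. KLK7, a protease that acts in skin shedding, went the other way, at 28.1 ± 5.16 CPM in ACTB-mut, 10.7 ± 2.01 CPM in ACTB-WT and 35.3 ± 11.5 CPM in Actin KO, and fell in ACTB-WT against Actin KO (-1.72, SE 0.32, edgeR adjusted p = 0.0146). Without ACTB-WT replicate 1, or without Actin KO replicate 1 or 2, that KLK7 call was lost (adjusted p as high as 0.103). KLK7 was also called higher in ACTB-mut than in ACTB-WT (1.39, SE 0.32, edgeR adjusted p = 0.0472), and that call was lost in all 6 fits that left out a library (adjusted p up to 0.176). DESeq2 made both KLK7 calls and limma-voom made neither. S100A2, a calcium-binding protein of basal cells, rose in both add-backs against Actin KO, by 1.35 in ACTB-mut (SE 0.22, edgeR adjusted p = 0.00729) and by 1.00 in ACTB-WT (SE 0.22, adjusted p = 0.0357) on the log2 scale. The first was lost without Actin KO replicate 3 (adjusted p = 0.0545), and the second was kept only without Actin KO replicate 2 (up to 0.170 otherwise). The basal keratinocyte markers (KRT5, KRT14, KRT6A, TP63, DSG3 and COL17A1) summed to 3.19 to 4.19 CPM in ACTB-mut, 4.77 to 11.0 CPM in ACTB-WT and 1.26 to 3.44 CPM in Actin KO. This sum was highest in ACTB-WT, where 5 of 6 markers had counts, and its part in the keratin values was not tested.

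Among 26 epithelial transcription factors, 17 were tested in the actin table and SOX9 alone was called by edgeR. DESeq2 called 1 in ACTB-mut against Actin KO, 2 in ACTB-WT against Actin KO and 3 in ACTB-mut against ACTB-WT, and limma-voom 0, 1 and 2, SOX9 included wherever edgeR called it. SOX9, a factor of intestinal crypt cells, was at 32.4 ± 3.43 CPM in ACTB-mut, 11.3 ± 0.514 CPM in ACTB-WT and 32.1 ± 3.97 CPM in Actin KO (SD, n = 3 each). It was thus lowest in the group with most KRT13 and KRT17, with a log2 fold change of 1.51 for ACTB-mut over ACTB-WT (SE 0.27, edgeR adjusted p = 0.011) and -1.50 for ACTB-WT over Actin KO (SE 0.27, adjusted p = 0.00997). The first call was lost without ACTB-WT replicate 2 or ACTB-mut replicate 3 (adjusted p up to 0.0558) and the second without Actin KO replicate 3 (0.0523). Of 18 intestinal differentiation genes only 2 were tested, and ALPP, a placental-type alkaline phosphatase, rose to 13.6 ± 4.34 CPM in ACTB-WT against 0.0823 ± 0.0718 CPM in Actin KO (edgeR adjusted p = 0.0182), a call kept only without ACTB-WT replicate 2 or 3 (adjusted p up to 0.0889 otherwise). ACTB-WT held 241 ALPP counts against 2 in Actin KO, a ratio of scaled counts of 162 with an exact 95% counting interval of 44.3 to 1343. KRT20, itself a marker of that differentiation, was among the low genes that could not be tested. No gene of either list was called in the SETD3 table by edgeR or limma-voom. At an unadjusted p below 0.05 there were 4 transcription factors in SETD3 KO2 against SETD3 CT, 1 in SETD3 KO1 against SETD3 CT and 1 in SETD3 KO2 against SETD3 KO1. Of all tested genes, 4.95%, 5.75% and 4.84% were below that level, in the same order.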

How the data were processed

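The authors deposited RSEM expected counts per gene, not normalised, as 1 table for the actin groups and 1 for the SETD3 groups. Per the submitters' processing notes, trimming used cutadapt 1.15 through Trim Galore 0.4.5, and RSEM 1.2.28 with Bowtie2 gave the quantities on GRCh38; annotation release and strand setting are not given in the sources used here. Counts were rounded to whole numbers and edgeR 4.0.16 fitted the 3 groups of each table together (filterByExpr, TMM, robust quasi-likelihood F tests, two-sided). Benjamini-Hochberg adjustment ran over all 13882 or 13846 tested genes, and genes with an adjusted p below 0.05 were called. SE is the size of the log2 fold change over the root of F. Ratios for groups with 1 to 3 counts carry exact 95% intervals, and floors are 3 counts over a group; both cover counting error alone. Lengths and coordinates came from GENCODE 29, which matched 58496 of 60683 rows. The script was tested on simulated data.

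The members and the gene lists were chosen with earlier results of these data known. All 10 members are described; a list gene is named if edgeR called it in any comparison, and the 3 most correlated genes are named for each called member. The text marks the other keratins named outside this rule. Alternatives were RLE size factors, no filter, a filter of at least 1 CPM in 3 libraries, DESeq2 1.42.0, limma-voom (limma 3.58.1), the 2 groups alone, a replicate block, GC and length offsets, pseudogene counts added to their parent gene, and leaving out each library. DESeq2 results for the transcription factor list in the SETD3 table are not reported here.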

Additional observations from a re-analysis of the deposited data

Results flagged for a closer look

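The log2 fold changes of both add-back groups, each against the same Actin KO libraries, differed for KRT13 and KRT17. The difference itself was tested as ACTB-mut against ACTB-WT. ACTB RNA also differed, at 32.0 to 47.1 CPM in ACTB-mut and 23.2 to 31.0 CPM in ACTB-WT. Actin form, ACTB level and line therefore cannot be told apart here. For KRT13 the log2 fold change of ACTB-mut minus that of ACTB-WT was -4.95 (SE 0.88, edgeR adjusted p = 0.0131), lower in 3 of 3 ACTB-mut libraries. For KRT17 it was -7.81 (SE 0.91, edgeR adjusted p = 4.30e-04), also lower in 3 of 3. No keratin library was tested for standing apart from its group, since every group had 3 libraries.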

How the results depend on the processing

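Each of 51 keratin fold changes was recomputed under every alternative that could give it, 757 values in all: 701 kept their direction and their side of the threshold, 35 changed sign, 15 lost a call and 6 gained 1. The number of keratins called was 3 in ACTB-WT against Actin KO and 5 in ACTB-mut against ACTB-WT with DESeq2, and 1 in each with limma-voom. For ACTB-mut against Actin KO it was 0 with DESeq2 (which gave KRT17 no adjusted p), limma-voom, the 2 groups alone (where KRT17 did not pass the filter and was not tested), and GC and length offsets. Leaving out a library gave 1 to 2 keratins in ACTB-WT against Actin KO, 0 to 1 in ACTB-mut against Actin KO and 1 to 2 in ACTB-mut against ACTB-WT. The cause of these shifts was not tested. In no alternative was any of the 10 keratins called in the SETD3 table. Counts of all called genes, in the order ACTB-WT against Actin KO, ACTB-mut against Actin KO, ACTB-mut against ACTB-WT, SETD3 KO1 against SETD3 CT, SETD3 KO2 against SETD3 CT and SETD3 KO2 against SETD3 KO1, were 155, 128, 172, 2, 8 and 4. They were 320, 371, 402, 58, 68 and 58 with no filter on low counts, 358, 395, 446, 72, 90 and 56 with DESeq2, 106, 195, 165, 3, 8 and 9 with limma-voom, 119, 86, 104, 1, 1 and 4 with the 2 groups alone, and 159, 97, 126, 7, 12 and 6 with GC and length offsets. RLE size factors, the stricter filter and added pseudogene counts kept every count within 1.5 times. Leaving out a library gave 79 to 106, 34 to 77, 60 to 129, 0 to 4, 3 to 7 and 3 to 5 genes. With no filter, 3 keratins were called in ACTB-WT against Actin KO and 3 in ACTB-mut against ACTB-WT.

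Sign changes touched only fold changes that were not called. KRT8 in SETD3 KO2 against SETD3 KO1 was -0.048 with GC and length offsets and -0.10 with limma-voom. When libraries were left out, the log2 fold change of ACTB-mut over Actin KO ran from -0.10 to 0.18 for KRT8, -0.19 to 0.062 for KRT10, -0.18 to 3.43 for KRT13, -0.10 to 0.11 for KRT18 and -0.19 to 0.26 for KRT19, and that of ACTB-WT over Actin KO from -0.059 to 0.21 for KRT10. That of SETD3 KO1 over SETD3 CT ran from -0.37 to 0.20 for KRT7, -0.075 to 0.53 for KRT8 and -0.076 to 0.28 for KRT18. That of SETD3 KO2 over SETD3 CT ran from -0.040 to 0.37 for KRT7, -0.18 to 0.56 for KRT8 and -0.19 to 0.077 for KRT18. That of SETD3 KO2 over SETD3 KO1 ran from -0.026 to 0.54 for KRT7, -0.36 to 0.29 for KRT8, -0.30 to 0.70 for KRT13, -0.91 to 0.70 for KRT17, -0.31 to 0.037 for KRT18 and -0.11 to 0.37 for KRT80.

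Libraries of the same replicate number did not deviate together: over 9 pairs the correlation of deviations ran from -0.02 to 0.03 in the actin table and -0.19 to 0.07 in the SETD3 table. Pairs of unlike number in the SETD3 table ran from -0.19 to 0.20. No pairing by number was seen, but these correlations cannot exclude a shared batch. With a replicate block the gene counts, in the same order, were 89, 85, 83, 0, 1 and 3, and 2, 0 and 2 keratins were called in the actin table.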
